A study of Mus musculus with 8 samples.

Results

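The cytoplasmic ribosomal protein genes were examined in primary cultures from mouse hind limb muscle. Members were all probe sets whose single gene symbol was Rpl or Rps followed by digits, with a suffix a, l, x or y allowed, or was Rpsa, Rplp0, Rplp1 or Rplp2, and genes of the Rps6k kinase family were left out. This gave 100 probe sets of 46 genes among 45037 probe sets, and 84 of them, from 44 genes, were bright enough to be tested beside 23963 probe sets in all. The rule names genes by symbol and uses no signal.

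The PP6 cultures were putative muscle stem cells obtained by preplating, which separates cells by how soon they attach to a dish. The MACS cultures were putative muscle stem cells separated with magnetic antibody beads as a Sca1+/CD45- population, where Sca1 is a surface protein of progenitor cells and CD45 is a surface protein of leukocytes. Each group had 2 cultures, numbered 2 and 3 in the labels, and each culture was hybridised to an MOE430A and an MOE430B array, 8 arrays in all. All 4 cultures grew in F10 Ham medium with serum, and their RNA was column-purified without amplification. The labels name muscle cells as the contaminating cell type in both preparations. Purity was estimated for MACS only, by FACS, at over 80% Sca1+ and under 1% CD45+ cells. Age, strain and whether the cultures came from separate animals are not given in the labels, so every p-value here measures the spread between these cultures, which may be technical.

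Ribosomal proteins surround the ribosomal RNA of the large (Rpl) and small (Rps) subunits, and most are present in a single copy per ribosome, so their genes are expressed together and at high levels in growing cells. Their mRNAs start with a C followed by a run of pyrimidines, the 5′ terminal oligopyrimidine tract (TOP), through which the mTOR pathway and the RNA-binding protein Larp1 adjust translation when growth conditions change. In muscle, activation of stem cells is accompanied by growth of the nucleolus and by new ribosome production, and a few ribosomal proteins have paralogs with restricted expression, among them the striated muscle protein Rpl3l.

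The start-site windows of 5 member genes are shown, 4 picked because they hold this tract and the muscle paralog Rpl3l, which does not. At the annotated starts the tract was found in only 8 of the 40 genes with a window. Its absence from Rpl3l is therefore like that of most members. RefSeq annotation of GRCm38.p6 gave 48 start-site windows for 40 of the 46 genes. A C at the annotated start followed by an unbroken pyrimidine run, at least 5 bases together, was found in 8 of the 48 windows (16.7%), from 8 genes, against 2.51% of 32851 windows of all genes. Each window holds 50 bases before the start and 20 bases from it on, on the strand of the gene, at chr4:86857348-86857417 (minus strand) for Rps6, chr2:39005112-39005181 (minus) for Rpl35, chr11:114668530-114668599 (plus) for Rpl38, chr17:27635225-27635294 (minus) for Rps10 and chr17:24727776-24727845 (plus) for Rpl3l. Capitals mark the tract.
Rps6: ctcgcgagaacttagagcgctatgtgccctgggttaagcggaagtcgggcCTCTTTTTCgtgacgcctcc
Rpl35: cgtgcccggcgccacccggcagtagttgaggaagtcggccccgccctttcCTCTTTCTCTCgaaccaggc
Rpl38: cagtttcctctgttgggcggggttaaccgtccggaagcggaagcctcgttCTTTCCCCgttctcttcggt
Rps10: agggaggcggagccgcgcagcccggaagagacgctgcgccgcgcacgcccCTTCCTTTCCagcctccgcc
Rpl3l: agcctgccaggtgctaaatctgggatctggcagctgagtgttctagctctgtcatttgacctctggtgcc

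The tract depends on the annotated start being exact to the base, so a window without it shows only that these letters do not follow that start. Over 300 bases (250 before and 50 after the start, both strands), CCGGAAG, an ETS-type motif, was present in 41.7% of the member windows and 8.86% of all windows, and TCTCGCGA in 18.8% and 0.995%. CTTTCC was present in 45.8% of the member windows and 26.6% of all, CTTTTC in 25% and 21.8%, AAGATGGC, a YY1-type motif, in 6.25% and 2.75%, and TATAAA in 10.4% and 13.6%. Matches of different motifs may overlap, and these shares describe the sequences only.

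Array signals were MAS5 values on a linear scale and are given here as log2 signal after scaling. The signal of a probe set depends on its probes, so values are compared between cultures and not between genes. Pearson correlation of log2 signal over the tested probe sets was 0.839 between the PP6 cultures, 0.858 between the MACS cultures, and 0.783 to 0.835 across the groups. The ratio of 3′ to 5′ Gapdh signal, which is higher in degraded or incompletely copied RNA, was 6.65 and 10.3 in PP6 replicates 2 and 3, and 12.1 and 5.34 in MACS replicates 2 and 3. RNA concentrations in the labels were 35 and 15 ng/µl for PP6 and 55 and 65 ng/µl for MACS. Cell type markers differed between the groups. The 12 neutrophil and leukocyte markers, all tested, summed to signals of 109422 to 368350 in PP6 and 8737 to 10452 in MACS, with all 12 higher in both PP6 cultures. The 10 tested of 11 sarcomere genes summed to 22602 to 61081 in PP6 and 3984 to 4433 in MACS, again with all 10 higher in both PP6 cultures. Ptprc, which encodes CD45, had log2 signals of 9.71 and 11.43 in PP6 and 8.25 and 8.67 in MACS. The 6 tested of 7 satellite cell and myoblast genes had a median difference, PP6 minus MACS on the log2 scale, of 0.40 with 4 above 0 and 2 below, and their signals summed to 25536 to 28282 in PP6 and 16944 to 23165 in MACS. Of these, Myog, a factor of differentiating myoblasts, differed by 2.26, Des by 1.27, Cdh15 by 0.54, Chrna1 by 0.27, the myoblast factor Myod1 by -0.19 and the satellite cell factor Pax7 by -1.56. The 5 tested of 6 mesenchymal progenitor genes had a median of 1.01 with 4 above 0, and summed to 109718 to 129563 in PP6 and 51112 to 66305 in MACS. Most of these sums was Dcn, at 16.75 and 16.53 in PP6 and 15.14 and 15.68 in MACS. By gene the differences were 2.17 for Col1a1, 1.23 for Dcn, 1.01 for Thy1, 0.03 for Pdgfra and -0.76 for Cd34. The gene of this list that was not tested was Ly6a, the Sca1 gene. The 6 endothelial genes had a median of -0.50 with all 6 below 0, and summed to 16728 to 18295 in PP6 and 24851 to 26736 in MACS. None of these markers passed the adjusted threshold. In such bulk samples fewer cells of a type and less RNA per cell cannot be told apart.

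Averaged over the 2 cultures of each group, ribosomal protein mRNAs had a median difference near 0 between PP6 and MACS. The MACS cultures lay on either side of PP6. Member median log2 signals were 15.00 and 14.17 in MACS replicates 2 and 3, against 14.74 and 14.71 in PP6. The median difference, PP6 minus MACS on the log2 scale, was 0.04 over the 84 tested probe sets, beside 0.01 over all 23963 tested, and 0.03 over the 44 genes represented by 1 probe set each, beside 0.02 over all 12278 genes. Single probe sets lay between -0.95 and 0.72, with 49 above 0 and 35 below, and genes between -0.61 and 0.50, with 26 above 0 and 18 below. None of the 84 probe sets passed a Benjamini-Hochberg adjusted limma p under 0.05, in either direction, and neither did any of the 23963 probe sets (0% called in each direction, smallest adjusted p 0.255). At an unadjusted limma p under 0.05, 0 of the 84 were called higher and 0 lower, where 5.69% of all tested probe sets were called higher and 5.83% lower. The smallest adjusted p of a ribosomal protein probe set was 0.453, for the _a_at probe set of Rpl7 at a difference of -0.55 ± 0.23 (SE). An exact permutation test of 2 against 2 cultures cannot give a two-sided p below 0.333.

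A p that misses the threshold does not show equal levels, and the intervals give how far the data limit a difference. The 95% interval of the limma fit lay wholly within 1 log2 unit of 0 for 55 of the 84 probe sets (65.5%) and for 34 of the 44 genes (77.3%). The same held for 28.5% of all tested probe sets and 32.9% of all tested genes. This share was higher in bright probe sets, whether members or not. It was 60.5% for 610 other probe sets with a mean log2 signal above 14. Members above 14 had a share of 80%, and dimmer members 44.1%. By gene, the intervals reached from -1.64 at the lowest to 1.20 at the highest, as the plot of gene differences shows.

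**Figure D1:**
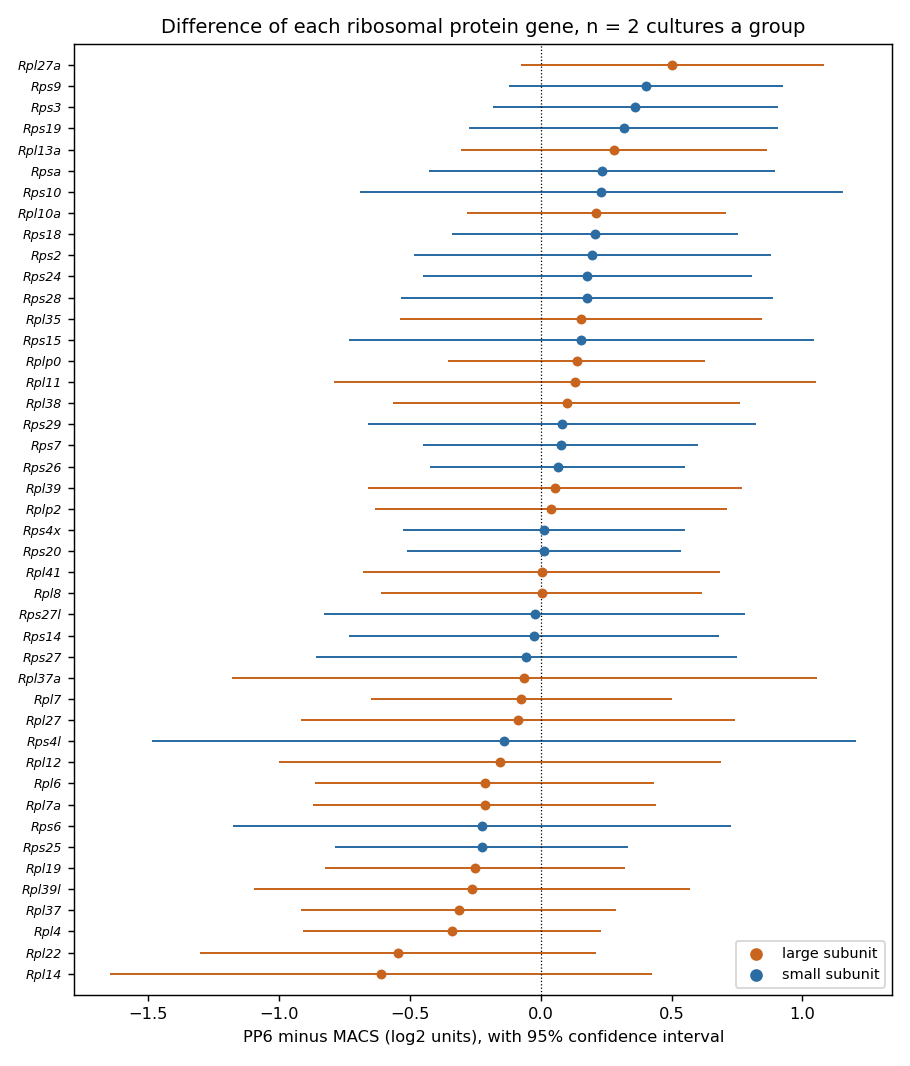
Difference of each of the 44 tested ribosomal protein genes, PP6 minus MACS in log2 units on the horizontal axis, with its 95% confidence interval from limma as a bar (n = 2 cultures a group) and colours for the subunit. The points lie between -0.61 (Rpl14) and 0.50 (Rpl27a), and every interval includes 0.

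Both subunits had medians near 0. The 23 large subunit genes had a median difference of -0.06, with 11 above 0 and 12 below, and the 21 small subunit genes had a median of 0.08, with 15 above 0 and 6 below. By probe set the medians were 0.00 for 41 large subunit probe sets and 0.05 for 43 small subunit probe sets. Both PP6 cultures lay above both MACS cultures for 11 of the 84 members, where the share of all tested probe sets was 22.5%. Both PP6 cultures lay below both MACS cultures for 10 of the 84, where the share of all was 21.7%. By subunit, PP6 was above for 5 of 41 large and 6 of 43 small subunit probe sets. It was below for 9 of 41 large and 1 of 43 small subunit probe sets. The difference between the subunits was not tested. By gene, PP6 was above MACS in all 4 pairs of cultures for 9 of 44, where the share of all genes was 23.8%, and below in all 4 for 6 of 44, where it was 21.9%.

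The larger spread was within the MACS group. MACS replicate 2 was above MACS replicate 3 for 73 of the 84 ribosomal protein probe sets, where the share over all tested probe sets was 49.5%. The median gap, MACS replicate 2 minus MACS replicate 3, was 0.56 for the members and -0.01 for all tested probe sets. By gene the gap was smaller, 0.43 for the 44 members, beside -0.01 for all genes. MACS replicate 2 was higher for 38 of the 44, where the share of all genes was 49.4%. The gap was 0.44 for large subunit genes and 0.28 for small subunit genes. The PP6 cultures differed by a median of 0.07, PP6 replicate 2 minus PP6 replicate 3, with replicate 2 above for 50 of 84, where the share of all was 51.6%. The median SD of a member was 0.12 between the PP6 cultures and 0.40 between the MACS cultures. For all tested probe sets these medians were 0.24 and 0.27. Among probe sets with a mean log2 signal above 14, they were 0.10 and 0.39 for members and 0.14 and 0.22 for others. A small SD between the PP6 cultures was thus shared by other bright probe sets. The median log2 signal of the members was 14.74 in PP6 replicate 2 and 14.71 in PP6 replicate 3, against 15.00 in MACS replicate 2 and 14.17 in MACS replicate 3. The PP6 cultures therefore lay between the MACS cultures: both did so for 40 of the 84 members, where the share of all was 14%, and the reverse, both MACS cultures between the PP6 cultures, held for 4 of 84, where the share of all was 13%. With 1 culture on each side, the gap between MACS replicates has no test.

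**Figure D2:**
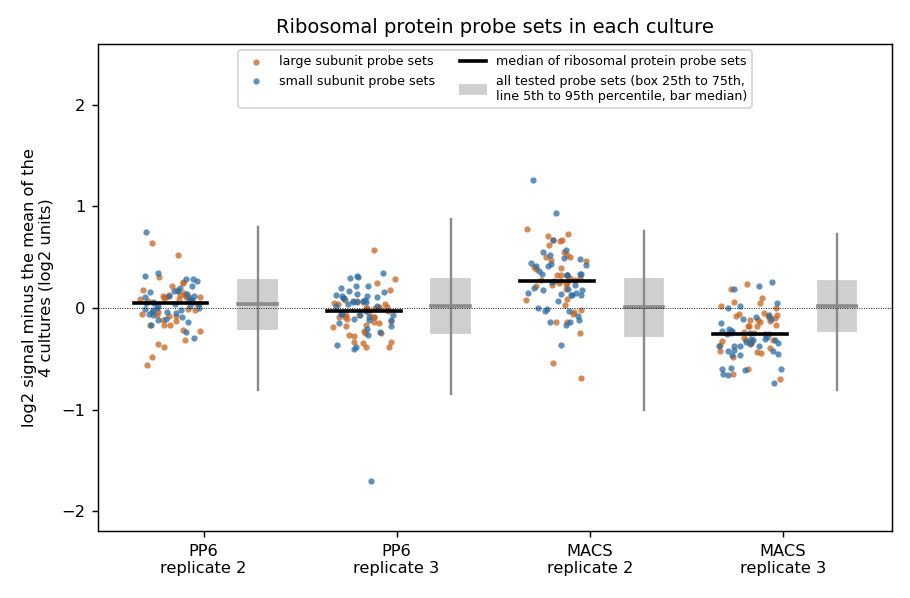
Log2 signal of each of the 84 tested ribosomal protein probe sets in each culture, as its deviation from the probe set's mean over the 4 cultures (vertical axis, log2 units), with the member median as a black bar and all tested probe sets as grey boxes. Member medians were 0.05 and -0.03 in PP6 replicates 2 and 3, against 0.27 and -0.26 in MACS replicates 2 and 3, while the medians of all tested probe sets were between 0.01 and 0.04.

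Rps10, Rpl37a, Rps15 and Rpl38 were picked to show the pattern after their values were seen. Rps10 is a small subunit protein that is ubiquitinated on stalled ribosomes. Its representative probe set had log2 signals of 15.24 and 15.31 in PP6, against 15.58 in MACS replicate 2 and 14.51 in MACS replicate 3. The PP6 values were within 0.08 of each other and lay between MACS values that were 1.06 apart. Rpl37a, a large subunit zinc finger protein, was at 14.75 and 14.56 in PP6, and at 15.40 and 14.04 in MACS replicates 2 and 3, a MACS gap of 1.36. Rps15, a protein of the small subunit head, was at 14.42 and 14.48 in PP6, and at 14.81 and 13.79 in MACS replicates 2 and 3. In each of these genes the PP6 cultures overlapped with the MACS range and MACS replicate 3 was the lowest culture. Rpl38, which in mice is required for translation of a set of Hox mRNAs, was at 15.93 and 15.86 in PP6, and at 16.09 and 15.50 in MACS replicates 2 and 3.

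By representative probe set, a minority of genes did not follow it. The MACS gap was under 0.1 for Rplp0, Rps3 and Rps7, at 0.06, 0.09 and 0.05. It was slightly negative for Rps26 and Rpl10a, at -0.10 and -0.06. It was more negative for Rpl39, Rps19, Rps27 and Rps6, at -0.43, -0.41, -0.38 and -0.29. There MACS replicate 3 was the higher of the MACS cultures. The other tested probe set of Rps7 did follow the pattern, with a gap of 0.58, and that of Rps3 had -0.21. These genes were chosen for mention after their values were seen. In all, 11 of the 84 probe sets had MACS replicate 2 at or below replicate 3.

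The gap was of like size in bright and in dim members and in the main probe set classes. Members with a mean log2 signal above 14 (50 probe sets) had a median gap of 0.55 and dimmer members (34) a gap of 0.58, whereas 610 other probe sets above 14 had a gap of 0.09, with 57.5% higher in MACS replicate 2. The 38 probe sets with the suffix _x_at, whose probes may cross-hybridise with related sequences such as pseudogenes, had a gap of 0.58, and the 43 with _at or _a_at a gap of 0.53. A further 99 tested probe sets list a ribosomal protein symbol beside others and so fall outside the single-symbol rule. Those that list a member gene were not left out of them. They had a gap of 0.53, higher in MACS replicate 2 for 87 of 99. Mitochondrial ribosomal proteins, which are encoded by separate genes, had a gap of 0.30, higher in MACS replicate 2 for 55 of 73. Quantile normalization gave the 84 members a gap of 0.34, with 60 higher in MACS replicate 2, and centring the arrays on their medians gave 0.60, with 74. MACS replicate 2 also had the highest Gapdh 3′ to 5′ ratio of the 4 cultures (12.1) and MACS replicate 3 the lowest (5.34). The part of RNA quality in the gap was not tested, and since each culture had its own fluidics module, module and culture cannot be told apart.

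The sign of the group comparison depended on the MACS culture used. A culture left alone in its group was assumed to vary like the other group. The median member SD was 0.12 between the PP6 cultures and 0.40 between the MACS cultures, so only effect sizes are given. Without MACS replicate 2 the member median was 0.24, with 66 of 84 above 0, and the median of all tested probe sets was -0.02. Without MACS replicate 3 the member median was -0.30, with 65 of 84 below 0, and the median of all was -0.01. Without PP6 replicate 2 the member median was -0.01 and without PP6 replicate 3 it was 0.07.

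By representative probe set, Rpl27a had the smallest p among large subunit genes. Its log2 signals were 11.87 and 11.86 in PP6, against 11.48 and 11.25 in MACS. Both PP6 cultures were above both MACS cultures, and the difference was 0.50 ± 0.23 (SE; 95% interval -0.07 to 1.08; limma adjusted p 0.486), a 1.42-fold ratio on the signal scale. Rpl13a, a subunit protein that also takes part in interferon-regulated translation and is often used as a reference gene, was at 16.16 and 16.45 in PP6, against 16.15 and 15.91 in MACS. The PP6 cultures were the higher ones, PP6 replicate 2 only slightly above MACS replicate 2. Its difference of 0.28 ± 0.23 turned to -0.017 after quantile normalization and was -0.0092 when the _x_at and _s_at probe sets were left out. Rpl10a, the protein of the L1 stalk where transfer RNA leaves, differed by 0.21 ± 0.20, with 15.33 and 15.47 in PP6 and 15.16 and 15.21 in MACS.

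On the other side, Rpl22, a large subunit protein that also binds other RNAs, was at 13.26 and 13.35 in PP6, against 14.25 and 13.45 in MACS. The PP6 cultures were below both MACS cultures, MACS replicate 3 by only a little, and the difference was -0.55 ± 0.30 (95% interval -1.30 to 0.21). Rpl14 had the largest negative difference of any member gene by representative probe set, -0.61 ± 0.42. It read 9.81 and 9.65 in PP6 and 10.76 and 9.92 in MACS, with MACS replicate 2 standing above the other 3 cultures. Rpl4, whose long loop lines the exit tunnel for the new protein chain, was at 15.70 and 15.48 in PP6, against 16.08 and 15.78 in MACS, with no overlap and a difference of -0.34 ± 0.23. The other large subunit genes named by the smallest p below 0 were Rpl37 (-0.31 ± 0.24), Rpl19 (-0.25 ± 0.23), Rpl6 (-0.21 ± 0.26) and Rpl7a (-0.21 ± 0.26). PP6 lay below MACS in both cultures for Rpl37 and Rpl19, and overlapped it for Rpl6 and Rpl7a.

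Among small subunit genes, Rps9, a protein of the mRNA entry channel, was at 14.72 and 15.01 in PP6, against 14.52 and 14.41 in MACS. The groups did not overlap, and the difference was 0.40 ± 0.21 (95% interval -0.12 to 0.92; limma adjusted p 0.536). Rps3, which sits at the same channel, was at 16.85 and 16.82 in PP6, against 16.52 and 16.43 in MACS, a difference of 0.36 ± 0.22 with narrow spread in both groups. A second probe set of Rps3, on the MOE430B array, gave -0.15, and quantile normalization turned the first to -0.091. Rps19, the gene most often mutated in Diamond-Blackfan anaemia in humans, was at 15.17 and 14.92 in PP6, against 14.53 and 14.93 in MACS. PP6 replicate 3 and MACS replicate 3 were at the same level, and the difference was 0.32 ± 0.24. Rps18, a protein of the small subunit head, had a difference of 0.21 ± 0.22 by its representative _x_at probe set. Its other tested probe sets gave -0.14 and -0.34, and quantile normalization turned the representative one to -0.12. Rps25, which is needed by some viral internal ribosome entry sites, had -0.23 ± 0.22. It read 12.12 and 11.94 in PP6 and 12.37 and 12.14 in MACS.

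Rps6, the small subunit protein phosphorylated by the S6 kinases downstream of mTOR, was at 10.14 and 9.60 in PP6, against 9.95 and 10.24 in MACS. The groups were interleaved, with PP6 replicate 3 the lowest culture, and the difference was -0.22 ± 0.38. Its second probe set was too dim to be tested.

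The stalk proteins recruit the GTPases that drive elongation. Rplp0, the base of the stalk and a common reference gene, had narrow spread in both groups, at 15.58 and 15.55 in PP6, against 15.46 and 15.40 in MACS. The PP6 cultures were above the MACS cultures, by a difference of 0.14 ± 0.20 (95% interval -0.35 to 0.62). Rplp2, a lateral stalk protein, was at 15.84 and 15.66 in PP6, against 16.01 and 15.42 in MACS, a difference of 0.04 ± 0.27. Rpsa, the small subunit protein also known as the laminin receptor precursor, was at 16.68 and 16.58 in PP6, against 16.66 and 16.13 in MACS. Only MACS replicate 3 stood apart for Rpsa, and the difference was 0.23 ± 0.27. Rplp1 was not analysed here because no probe set carries its symbol alone.

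Other members often used as reference genes had intervals that reached beyond 0.5 log2 units on at least one side. By their representative probe sets, Rps18 reached from -0.34 to 0.75 and Rpl19 from -0.82 to 0.32. Rps29 reached from -0.66 to 0.82 (difference 0.08 ± 0.30) and Rpl13a from -0.30 to 0.86. Rps29 was at 15.85 and 15.93 in PP6, against 16.18 and 15.44 in MACS, so the PP6 cultures lay inside the MACS range.

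Paralogs and their parent genes gave small differences with wide errors. Rpl39l, a paralog enriched in testis, differed by -0.26 ± 0.33 and Rpl39, which lines the exit tunnel, by 0.06 ± 0.29. Rps27l, a p53-responsive paralog, differed by -0.02 ± 0.32 and Rps27 by -0.05 ± 0.32. Rps4l differed by -0.14 ± 0.54 and Rps4x, the X-linked parent gene, by 0.01 ± 0.22. The differences between paralog and parent were not tested. Rpl3l, the striated muscle paralog whose window is printed above, was too dim to be tested: its signals on the linear scale were 166 and 39.2 in PP6 and 37.4 and 29.3 in MACS, below the median signal of every MOE430A array (566 to 630). Rpl3, Rpl10, Rpl10l, Rpl36a and Rpl36al were not analysed here for lack of a probe set with that symbol alone.

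Rpl11, which binds and inhibits Mdm2 when ribosome assembly is disturbed, was at 14.07 and 13.94 in PP6, against 14.40 in MACS replicate 2 and 13.34 in MACS replicate 3. Its MACS gap of 1.07 was among the wide ones, and the difference of 0.13 ± 0.37 had an interval of -0.79 to 1.05. Rpl5 and Rpl23, which also bind Mdm2, and the ubiquitin fusion gene Rps27a were not analysed here for the same reason of shared symbols. Among related genes outside the naming rule, Fau, which encodes a ubiquitin-like protein fused to a small subunit protein, differed by -0.01, Rps3a1 by -0.02, Rpl22l1 by -0.08 and Rpl7l1 by -0.19. For Fau and Rps3a1 the PP6 cultures again lay between the MACS cultures.

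Probe sets of the same gene did not always agree. Of 19 genes with more than 1 tested probe set, 12 had differences of both signs, 5 had only positive ones (Rps9, Rps15, Rps24, Rps28 and Rps29) and 2 had only negative ones (Rpl7 and Rpl27). The range between probe sets of a gene had a median of 0.29 log2 units. Rps10 had the widest range, 1.42 over 6 probe sets, from -0.95 to 0.47. The lowest of these, a dim _at probe set, had log2 signals of 9.31 and 6.86 in PP6 and 9.82 and 8.25 in MACS, with the 2 cultures of each group far apart. Rpl22 came next with 1.26, from -0.55 for the representative probe set, through -0.35 on MOE430B, to 0.72 for an _s_at probe set of MOE430A. That last one read 11.73 and 11.16 in PP6, against 10.55 and 10.91 in MACS, so its PP6 cultures were above MACS where those of the representative probe set were below.

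**Figure D3:**
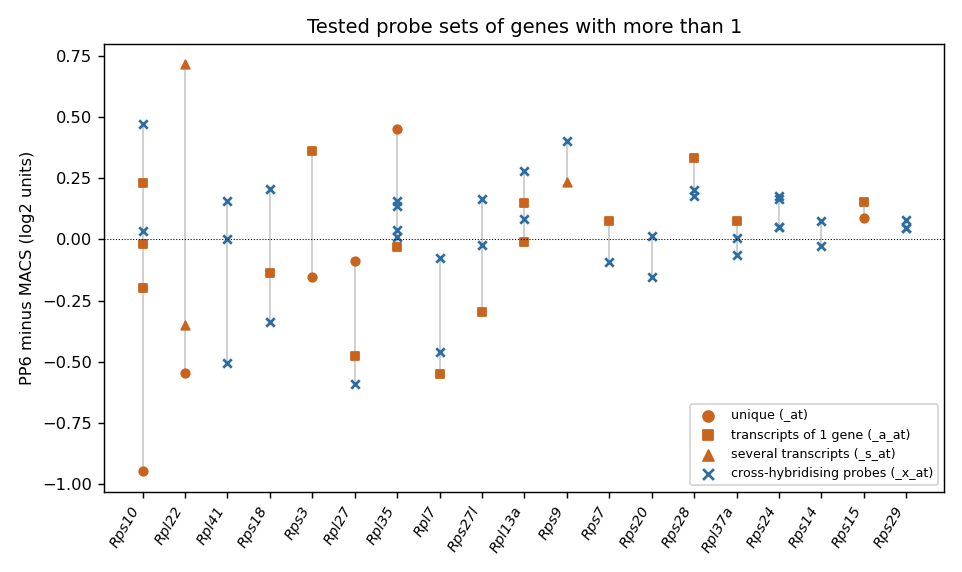
Difference of every tested probe set of the 19 genes that have more than 1, PP6 minus MACS in log2 units on the vertical axis, with symbols for the probe set suffix and genes ordered by their range. Ranges run down from 1.42 for Rps10 and 1.26 for Rpl22, and 12 genes have points on both sides of 0.

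Of the 16 members that were not tested, 14 belong to genes with another probe set that was, and only Rpl3l and Rps16 were lost. Rps16 read 243 and 58.5 in PP6, against 106 and 135 in MACS on the linear scale, with the PP6 cultures on either side of the MACS cultures. The 99 tested probe sets that list a ribosomal protein symbol beside others had a median difference of -0.04, with 43 above 0 and 56 below.

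Most genes that build ribosomes had negative differences, though none passed the adjusted threshold. The 59 tested of 62 ribosome biogenesis genes had a median difference of -0.46, with 5 above 0 and 54 below, 17 called lower at an unadjusted limma p under 0.05 (5.44% of all genes were) and 0 called higher (5.81% of all genes were). Both PP6 cultures were below both MACS cultures for 39 of the 59, where the share of all genes was 21.9%. The 4 with the smallest p were Shq1, an assembly factor of H/ACA particles (-2.77 ± 0.37), Ncl, which encodes nucleolin (-1.18 ± 0.22), Wdr43, a factor of the small subunit processome (-1.20 ± 0.23), and Ddx21, an RNA helicase of the nucleolus (-1.55 ± 0.31). Shq1 read 8.54 and 8.31 in PP6, against 11.11 and 11.29 in MACS, and Ncl read 13.29 and 12.94 in PP6, against 14.39 and 14.20 in MACS. In both genes the groups were far apart relative to their spread, yet the adjusted limma p was 0.255 and 0.295. The median of the 59 genes was -0.41 without MACS replicate 2 and -0.56 without MACS replicate 3. Without PP6 replicate 2 it was -0.52, and without PP6 replicate 3 it was -0.46. The count of 17 was 26 after centring arrays on their medians. In that fit 8.28% of all tested probe sets were called lower and their median was -0.11. With the filter at the 75th percentile the count was 20 of 49 genes, beside 8.50% of all tested probe sets. On MOE430B alone it was 7 of 18 genes, beside 5.43%. The list median stayed between -0.58 and -0.41 under all alternatives run.

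Translation initiation factors gave a median of -0.31 over 27 tested of 32 genes, with 4 above 0 and 23 below, 8 called lower at an unadjusted limma p under 0.05 (5.44% of all genes were) and 13 with both PP6 cultures below both MACS cultures (21.9% of all genes were). The median of these factors was -0.27 without MACS replicate 2 and -0.40 without MACS replicate 3. Without PP6 replicate 2 it was -0.40, and without PP6 replicate 3 it was -0.29. Eif3a and Eif3b, core subunits of the scaffold factor eIF3, differed by -0.92 ± 0.21 and -0.86 ± 0.20. Eif4e, the cap-binding protein, differed by -0.85 ± 0.23, and Eif5, which triggers GTP hydrolysis at the start codon, by -0.79 ± 0.20. Elongation factors and other mRNAs with a TOP tract had a median of -0.19 over 20 tested of 23 genes, with 4 above 0 and 16 below and 3 called lower at an unadjusted limma p under 0.05, where the share of all genes was 5.44%. These 3 were Nap1l1, a histone chaperone (-0.69 ± 0.24), Npm1, which encodes nucleophosmin (-0.61 ± 0.22), and Eef1d, a subunit of the elongation factor eEF1 (-0.65 ± 0.26). Mitochondrial ribosomal proteins had a median of -0.04 over 73 tested of 76 genes, with 29 above 0 and 44 below and 2 called lower, a count no higher than the 5.44% of all genes would give.

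The RNA polymerase I machinery, which transcribes ribosomal RNA, had a median of -0.40 over 13 tested of 16 genes, with 1 called lower at an unadjusted limma p under 0.05 (5.44% of all genes were), the SL1 subunit gene Taf1d (-0.83 ± 0.20). Of 18 genes that control ribosomal protein output or act with free ribosomal proteins, 11 were tested, with a median of -0.35 and 2 called lower, again beside 5.44% of all genes. These were Larp1, the TOP mRNA-binding protein (-1.06 ± 0.25), and Rps6ka3, a kinase that phosphorylates Rps6 (-0.81 ± 0.29). In the same list Mdm2 differed by -0.69 ± 0.28 and Myc, a transcription factor that drives ribosome biogenesis genes, by -0.65 ± 0.29. Cell cycle genes had a median of -0.72 over 19 tested of 21 genes and 9 called lower at an unadjusted limma p under 0.05, where the share of all genes was 5.44%. Their summed signal was 58323 to 67977 in PP6 and 99413 to 112334 in MACS. The neutrophil, leukocyte and sarcomere sums given above were higher in PP6, and the part of cell makeup or of cell cycle in the differences of any of these lists was not tested. The differences between lists were not tested either.

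**Figure D4:**
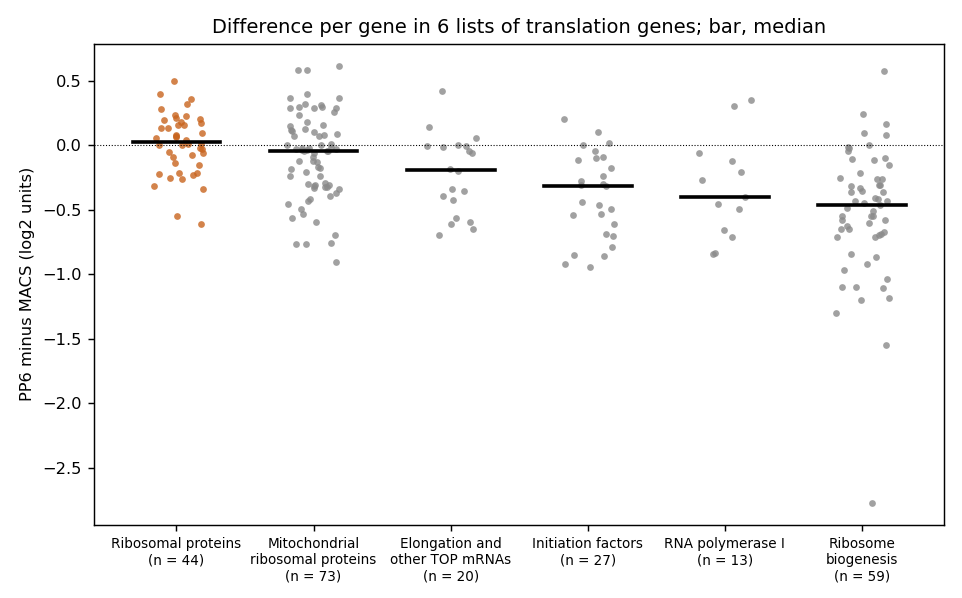
Difference per gene, PP6 minus MACS in log2 units on the vertical axis, for 6 lists of translation genes, with 1 point per gene and the median as a bar. Medians are 0.03 for ribosomal proteins, -0.04 for mitochondrial ribosomal proteins, -0.19 for elongation and other TOP mRNAs, -0.31 for initiation factors, -0.40 for RNA polymerase I and -0.46 for ribosome biogenesis.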

How the data were processed

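The values used were signal intensities, linear and deposited as 1 number for each probe set on each array. Per the submitters' processing notes the authors made them with MAS5, for which no version was found. Per the deposited values, the authors had scaled the arrays before deposit: the 2% trimmed mean was 1501 on MOE430A and 1500 on MOE430B. Scanner setting files showed 1 lot, 1 hybridisation day and 1 scan day per array type. Gene symbols came from the platform annotation, updated through Entrez identifiers to RefSeq (GRCm38.p6).

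Signals were set to a common trimmed mean and log2-transformed without a pseudocount, both array types were stacked, and the 64 controls of each type were removed. Testing required a signal that exceeded its own array's median in at least 2 of the 4 cultures. PP6 and MACS were compared with limma 3.58.1 in R 4.3.3 (lmFit, eBayes with an intensity trend, 2 residual degrees of freedom) and Benjamini-Hochberg adjustment over all tested probe sets, two-sided. The procedure was run on simulated data with planted changes to check its estimates, and its power with 2 cultures per group is not given here. A gene was represented by its MOE430A probe set with the highest mean signal, or the MOE430B one where there was none. Genes were named as the 8 with the smallest p in each direction, fixed sets of stalk proteins, paralogs, ubiquitin fusions, reference and disease genes, and up to 4 members of each other list, and others are said in the text to be chosen after their values were seen. Members, lists and motifs were chosen with earlier results of these data known. Alternatives covered scaling, pseudocount, filter, variance model, array type, probe set suffix, probe sets per gene, a replicate block and each culture left out. With 2 cultures per group, their number limits the precision. Figures were drawn with matplotlib 3.10.9.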

Additional observations from a re-analysis of the deposited data

How the results depend on the processing

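The count of ribosomal protein probe sets past the adjusted threshold was 0 under every alternative run. The count at an unadjusted limma p under 0.05, 0 as reported, was 3 after quantile normalization (all lower), 1 after centring arrays on their medians (lower), 1 with MOE430A fitted alone (higher), and 0 to 14 when 1 culture at a time was left out. Over all probe sets, the adjusted count of 0 was 5 with the filter at the 75th percentile, 71 with MOE430A fitted alone, and 0 to 1 with 1 culture left out. With the replicate block it was 2, and the block left the member count at 0 and the median at 0.04. Deviations of same-numbered cultures were nearly uncorrelated (-0.03 over all tested probe sets and 0.06 over members). With 2 cultures per group this cannot show whether cultures of the same number were prepared together. At an unadjusted limma p under 0.05, 5.83% of all tested probe sets were called lower after quantile normalization and 8.28% after centring. With MOE430A fitted alone, 7.51% of all tested probe sets were called higher. The ribosomal protein counts of 3, 1 and 1 in these fits were no higher than those shares would give.

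The member median of 0.04 was -0.06 after quantile normalization (33 above 0, 51 below) and -0.09 after centring on medians (27 above, 57 below), which moved the median of all probe sets to -0.11. It was 0.02 without the filter, 0.05 with the stricter one, -0.02 without _x_at and _s_at probe sets and -0.25 for the 2 tested probe sets of MOE430B alone, and -0.30 to 0.24 with 1 culture left out. With 1 culture left out it was -0.37 to 0.16 for the large subunit and -0.23 to 0.40 for the small. Of 31 named genes, 12 kept 1 direction throughout. Of 460 single-gene values under alternatives, 4 took the other sign where the reported difference had exceeded its standard error: Rps3 was -0.091 after quantile normalization and -0.15 on MOE430B alone, and Rpl13a was -0.017 after quantile normalization and -0.0092 without _x_at and _s_at probe sets. The causes were not tested. The count of initiation factors called lower, 8, was 5 with the replicate block and 5 without the intensity trend. In these fits 4.57% and 4.56% of all tested probe sets were called lower. No detection calls were at hand for these arrays, and dim probe sets such as that of Rpl3l have no stated bound.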
